A study of Danio rerio with 3 samples.

Results

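The genes that encode the proteins of the cytosolic ribosome were examined in whole zebrafish embryos, with the large and the small subunit set against each other. A gene was taken when its name in the deposited table is rpsa or begins with rpl or rps and a digit, or with rplp, and the genes of the ribosomal S6 kinases, whose names begin with rps6k, were left out. These names selected 86 of 32520 genes, of which 49 are named for the large and 37 for the small subunit. All 86 had a mean of at least 10 counts over the libraries, as did 18966 genes in all, which are called the tested genes below. The embryos were of the Tubingen strain and 36 hours post fertilization (hpf), and 3 libraries were made, labelled setd2-/- (HO), setd2+/- (HE) and wild type (WT). The study describes the embryos as littermates and uses a frame-shift line, E3fs1, as its default mutant, but the labels do not name the line or the number of embryos pooled. Each genotype had 1 library, so no difference has a replicate check, no test between genotypes was possible and no p-value is given. Intervals of 95% are exact binomial (Clopper-Pearson) ones, except that differences in the large to small ratio between libraries have intervals from a normal approximation. They cover counting error only and compare libraries, not genotypes.

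A ribosome joins a small subunit (40S), which reads the mRNA, to a large subunit (60S), which links amino acids and passes the growing chain through an exit tunnel. Each subunit is built from ribosomal RNA and many proteins that are mostly present in a single copy, so cells make these proteins in nearly equal numbers. In vertebrates their mRNAs begin with a run of pyrimidines, through which their translation follows nutrient signalling by the mTOR kinase, and genes of both subunits are mutated in the human anaemia of Diamond and Blackfan. Setd2 is the methyltransferase that places trimethylation on lysine 36 of histone H3 along transcribed genes.

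The libraries held 14160325 counts in HO, 12760683 in HE and 13340950 in WT. The mRNA of setd2 itself had 2087, 1380 and 1348 counts in the same libraries. The log2 ratio of HO to WT was 0.55 (95% interval 0.45 to 0.65) for setd2 and that of HE to WT was 0.12 (0.016 to 0.23), so the library labelled HO held the most setd2 mRNA, and HO, HE and WT below name the libraries by their labels only. The study describes a strong decrease of setd2 mRNA in homozygous embryos of E3fs1 and not in those of another line. That decrease was measured by quantitative PCR, in embryos of a later stage than those sequenced here. Whether it is present at the earlier stage and in read counts was not tested. If it is, and if the library is of E3fs1, the setd2 count goes against the label HO. Of 12 lists of tissue markers, none was at 0 in a library. Erythroid markers (hemoglobin genes and alas2) summed to 1083, 1052 and 505.4 CPM (counts relative to the scaled library size) in the HO-, HE- and WT-labelled libraries, lens markers to 23.3, 38.9 and 9.53, and hatching gland markers to 863, 1319 and 991.7. Whether such differences in tissue makeup have a part in the values of the ribosomal protein genes was not tested. In whole embryos, fewer cells that express a gene and less RNA of that gene per cell cannot be told apart.

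The ribosomal protein genes took a smaller share of the library labelled HO than of the others. The 86 genes summed to 897656 counts in HO, which was 6.34% of that library, to 892245 counts or 6.99% in HE, and to 929832 counts or 6.97% in WT. The large subunit took 3.79% of the counts in HO, 4.16% in HE and 4.16% in WT. The small subunit took 2.55% in HO, 2.83% in HE and 2.81% in WT. Both subunits thus had their lowest share in HO, and the interval of the whole share in HO (6.33% to 6.35%) did not overlap those of HE (6.98% to 7.01%) and WT (6.96% to 6.98%). Per exonic length, in FPKM (counts relative to exonic size and library total), the same genes made up 11.6% of all values in HO, 12.4% in HE and 12.6% in WT.

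The level of single genes, compared per length in FPKM differed widely between genes. The highest in the large subunit was rplp0, the core of the stalk that recruits elongation factors, with 2560 FPKM in HO, 2681 in HE and 2613 in WT. In the small subunit rps7, which takes part in the processing of ribosomal RNA, was among the highest with 1384, 1529 and 1532 FPKM in HO, HE and WT. The lowest values belonged to rps8b, the second copy of the gene for S8, at 2.04, 2.01 and 1.75 FPKM, and to a second row named rpl37, at 0.96, 1.30 and 0.98 FPKM. That second row has another gene identifier, 83, 102 and 80 counts, and the name COA1 in the reference of gene names, and is kept here because its deposited name fits the rule. The median gene of the large subunit stood at 561.3, 617.1 and 620 FPKM in HO, HE and WT, and that of the small subunit at 638, 678.6 and 706.3 FPKM. The median was thus lowest in HO for both subunits. The distance between libraries was small beside that between genes, as the plot of levels shows.

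**Figure D1:**
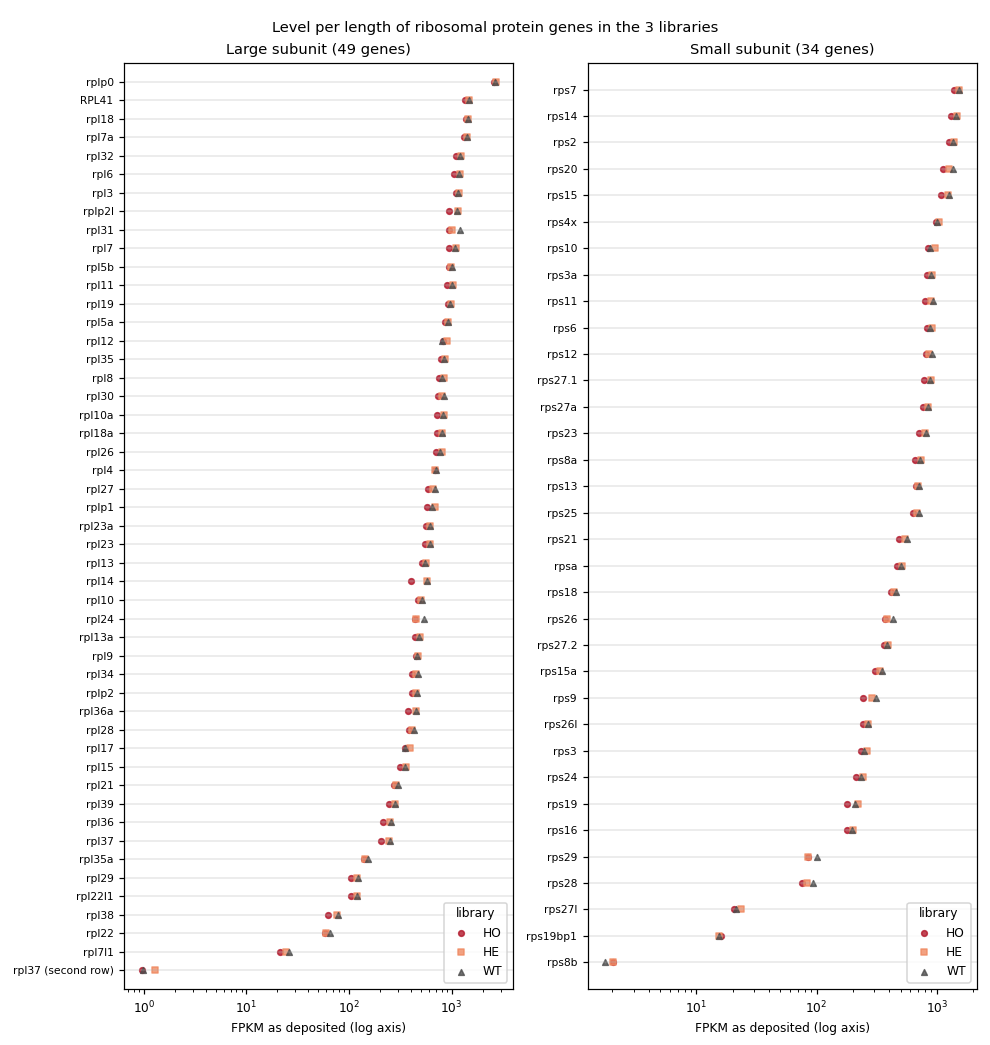
FPKM as deposited (log axis) of genes of the large subunit (left, 49 drawn) and of the small subunit (right, 34 drawn), with 1 point for each library labelled HO, HE and WT. For most genes the HO point lies left of the other two by far less than the distance between genes, with rplp0 at the top at 2560, 2681 and 2613 FPKM.

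The subunits were then compared with each other. The ratio of large- to small-subunit counts was 1.489 (1.483 to 1.496) in HO, 1.471 (1.464 to 1.477) in HE and 1.478 (1.471 to 1.484) in WT. On the log2 scale the ratio differed by 0.012 (0.0031 to 0.020) between HO and WT, by −0.0068 (−0.015 to 0.0017) between HE and WT, and by 0.018 (0.0098 to 0.027) between HO and HE. These differences, of which the largest is 1.29%, do not depend on the scaling of the libraries, since it cancels in the ratio. They depend in part on the most abundant gene of each subunit, rplp0 and rpsa. Without these genes the difference was 0.0071 between HO and WT, −0.0065 between HE and WT and 0.014 between HO and HE, with no interval given. Between HO and WT, the summed counts of the large subunit were lower by a log2 ratio of −0.13 and those of the small subunit by −0.14. Both sums were therefore lower in the HO-labelled library, by an amount that exceeded the shift in the ratio between the subunits.

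Gene by gene, the log2 ratio of HO to WT had a median of −0.14 in the large subunit (quartiles −0.21 and −0.10, range −0.53 to 0.02) and of −0.14 in the small subunit (quartiles −0.20 and −0.09, range −0.34 to 0.22). The medians differed by 0.00026, whereas all tested genes had a median of −0.0044. A ratio below 0 was found in 83 of the 86 genes, against 50.9% of the tested genes. A ratio of −0.1 or lower was found in 61 of the 86 genes (36 of 49 in the large and 25 of 37 in the small subunit), against 33.9% of the tested genes. Only 1 gene, rps8b with its few counts, was at 0.1 or above, against 31.7% of the tested genes. In turn, 1 gene, rpl14, was at −0.5 or lower, against 6.76%, and 0 genes were at 0.5 or higher, against 5.09%. The counting interval lay wholly below 0 for 79 of the 86 genes (45 large, 34 small), against 11.6% of the tested genes, and wholly above 0 for none, against 11.8%. Ribosomal protein genes have more counts than most genes and hence narrower intervals. Among the 310 other tested genes with at least 5000 counts, 113 (36.5%) had an interval below 0 and the median ratio was −0.00091. The spread between genes, with an SD of 0.10 in the large and 0.098 in the small subunit, was wider than the counting error, whose median half-width was 0.039 and 0.045.

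The HE-labelled library was compared with the same WT library and stood close to it. The median log2 ratio of HE to WT was 0.017 in the large and 0.033 in the small subunit, beside 0.0065 for all tested genes, and the large-subunit value turned to −0.0097 when the libraries were scaled to their total counts. A ratio of −0.1 or lower was found for 5 of the 86 genes (34.4% of the tested genes) and one of 0.1 or higher for 9 (33.9%). The counting interval was below 0 for 10 genes (12.3% of the tested genes) and above 0 for 32 (13.1%). Among the 310 other genes with at least 5000 counts it was below 0 for 71 and above 0 for 149. No gene was past 0.5 in either direction, at 0 of 86 lower (8.25% of the tested genes) and 0 of 86 higher (5.36%). The share of genes past a log2 ratio of 0.1 was thus below that of the tested genes on both sides. The tested genes have wider counting intervals, with a median half-width of 0.31 beside 0.042 for the 86 genes. Among the 310 other genes with at least 5000 counts, 41 (13.2%) were at −0.1 or lower and 92 at 0.1 or higher.

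Against HE, which is also part of the comparisons above, the HO-labelled library had a median log2 ratio of −0.18 in the large and −0.17 in the small subunit, beside −0.0092 for all tested genes. A ratio below 0 was found for 85 of the 86 genes (51.5% of the tested genes). A ratio of −0.1 or lower was found for 72 of the 86 genes (41 large, 31 small), against 36.1% of the tested genes, and the counting interval was below 0 for 79 (47 large, 32 small), against 15.2%. Among the 310 other genes with at least 5000 counts, 168 (54.2%) had an interval below 0 here too, with a median ratio of −0.054. No gene of the ribosomal proteins was at 0.1 or higher (34.7% of the tested genes) or at 0.5 or higher (7.65%), and 1, rpl14, was at −0.5 or lower (6.72%). Shorter genes were lower in HO than in HE across the whole table. With that trend over exonic size removed the medians were −0.093 and −0.081, with 36 genes at −0.1 or lower. The share of the tested genes at −0.1 or lower after this step was not computed, so that count has no background beside it. By scaled level, HO was the lowest of the 3 libraries for 83 of the 86 genes. The order HO, WT, HE from low to high held for 54 genes, or 62.8% (19.8% of the tested genes), and the order HO, HE, WT for 29, or 33.7% (15.2%).

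**Figure D2:**
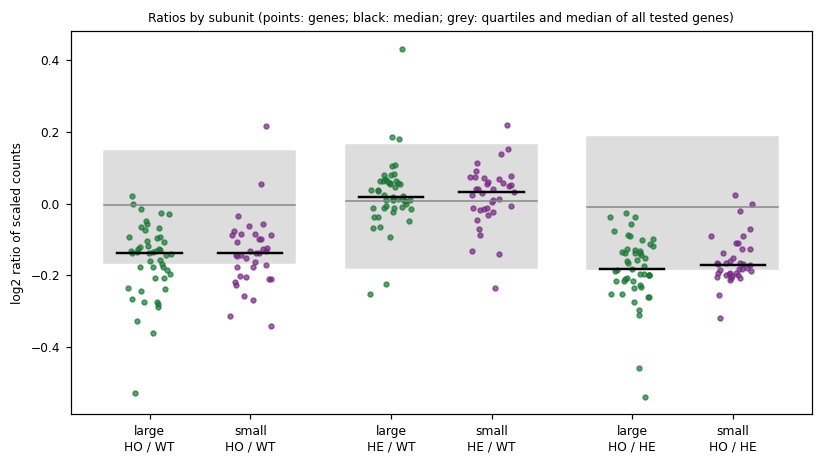
Log2 ratio of scaled counts (vertical axis) of each ribosomal protein gene, by subunit, for HO against WT, HE against WT and HO against HE, which share libraries. Black lines are medians over genes and grey bands the quartiles and median of all tested genes. In HO against WT both subunits have a median of −0.14, and in HE against WT medians of 0.017 and 0.033.

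In the large subunit, rpl14 (ENSDARG00000103433) stood apart. It encodes L14, a protein with no bacterial counterpart. It had 423 scaled CPM in HO, 614.9 in HE and 610.1 in WT, from 6015, 7757 and 8198 counts. HE and WT were thus alike while HO was far lower, with a log2 ratio of HO to WT of −0.53 (−0.58 to −0.48) and of HE to WT of 0.011 (−0.034 to 0.056). For rpl38, whose loss in mice disturbs the axial skeleton and the translation of Hox mRNAs, the values were 65.3, 81.1 and 82.0 CPM in HO, HE and WT. Its log2 ratio of HO to WT was −0.33 (−0.46 to −0.20), with HE again near WT.

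Another pattern was found for rpl31 and rpl24, which were low in HE as well. L31 sits at the rim of the exit tunnel, where chaperones dock on the emerging chain, and rpl31 (ENSDARG00000053365) had 1149 CPM in HO, 1263 in HE and 1475 in WT. Its log2 ratio was −0.36 (−0.39 to −0.33) for HO and −0.22 (−0.25 to −0.19) for HE, each against WT. L24 reaches across to the small subunit, and rpl24 (ENSDARG00000099104) had 755.7 CPM in HO, 775.2 in HE and 923.8 in WT. Its ratios to WT were −0.29 (−0.33 to −0.25) in HO and −0.25 (−0.29 to −0.21) in HE, and HO and HE differed by −0.037 (−0.077 to 0.003), which is within the counting error. Both genes were thus highest in WT by more than the counting error. The same alternatives of scaling that turned the median of HE left the sign of these ratios as it was.

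At the other end, rpl12, rpl17, rpl4 and rplp0 differed little between HO and WT. L12 forms the base of the stalk, and rpl12 had 1277 CPM in HO, 1428 in HE and 1259 in WT. L17 and L4 line the narrow part of the exit tunnel, and rpl17 had 793.2, 902.9 and 794.6 CPM and rpl4 had 1735, 1767 and 1753 CPM in HO, HE and WT. The log2 ratio of HO to WT was 0.021 (−0.010 to 0.051) for rpl12, −0.0025 (−0.041 to 0.036) for rpl17 and −0.015 (−0.041 to 0.010) for rpl4. These intervals include 0, but rpl12 and rpl17 were higher in HE than in WT, with ratios of 0.18 (0.15 to 0.21) and 0.18 (0.15 to 0.22). The most abundant gene, rplp0, had 2990 CPM in HO, 3181 in HE and 3044 in WT. Its ratio of HO to WT was −0.025 (−0.045 to −0.0059), and it turned to 0.041 once the trend over exonic size was removed.

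**Figure D3:**
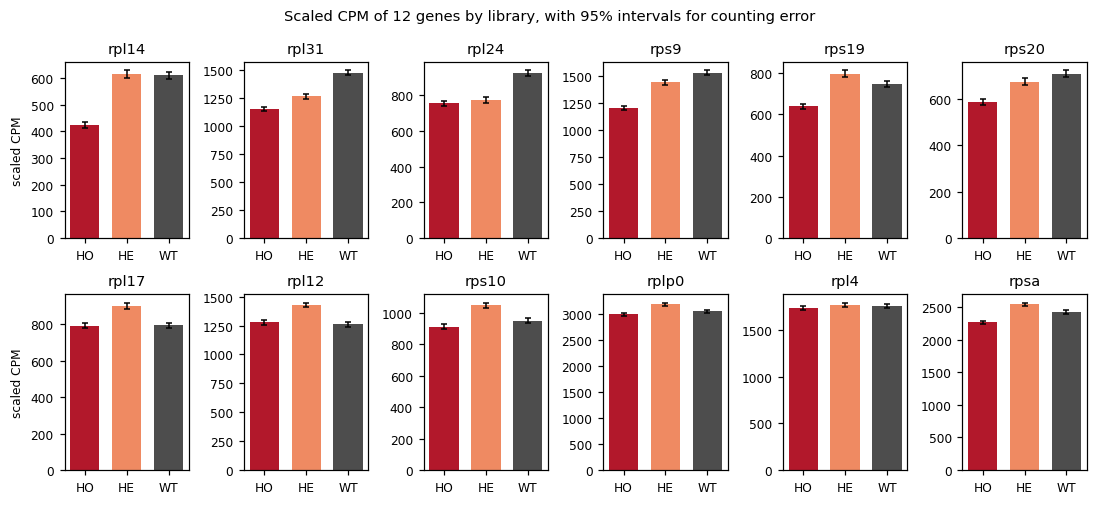
Scaled CPM (vertical axis, from 0) of 12 ribosomal protein genes in the libraries labelled HO, HE and WT, with bars for 1 library each and error bars for the 95% counting interval. For rpl14 the HO bar (423) is far below HE (614.9) and WT (610.1), whereas for rpl31 and rpl24 both HO and HE are below WT.

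The stalk as a whole did not move as one. Of its 5 genes, rplp1, rplp2 and rplp2l encode the flexible acidic proteins that hang from the stalk. rplp2l had 474.9, 583.6 and 559.9 CPM in HO, HE and WT, rplp1 had 706, 840.8 and 779.9, and rplp2 had 170, 185.6 and 187. All 3 were lowest in HO, with log2 ratios to WT of −0.24, −0.14 and −0.14. rplp0 was lowest in HO as well, by less, and rpl12 was not. The list had a median of −0.14 for HO and 0.064 for HE, each against WT.

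The proteins that join 5S ribosomal RNA before they enter the large subunit, and that bind the p53 regulator Mdm2 when assembly fails, had ratios on both sides of the subunit's median. rpl5a had 891.7, 956.7 and 951.6 CPM, rpl5b had 1004, 1058 and 1052, and rpl11 had 543, 630.2 and 614.4 CPM in HO, HE and WT. HO was the lowest library for each of them, and the ratio of HO to WT was −0.094, −0.068 and −0.18. With the trend over exonic size removed it was −0.017 for rpl5a, 0.0097 for rpl5b and −0.095 for rpl11, which left rpl11 furthest from 0. The 8 genes of the exit tunnel and its rim had a median of −0.11 for HO against WT, with intervals below 0 for 6 of them, rpl4 and rpl17 being the exceptions. That was 75%, beside 91.8% of the whole large subunit and 11.6% of all tested genes. Among the 310 other genes with at least 5000 counts the share was 36.5%. With the trend over exonic size removed, the median of these 8 genes was −0.024, beside −0.11 for the whole large subunit. Among proteins near the site of peptide bond formation, rpl3 had 1847, 2023 and 1933 CPM, rpl8 had 1273, 1451 and 1370, and rpl10, which is added late in assembly, had 1005, 1104 and 1096 CPM in HO, HE and WT. Their ratios of HO to WT, at −0.065, −0.11 and −0.13, were nearer to 0 than the median of the subunit. rpl7a, one of the most abundant mRNAs of the subunit, was at 1919, 2086 and 2051 CPM, with a ratio of −0.095.

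**Figure D4:**
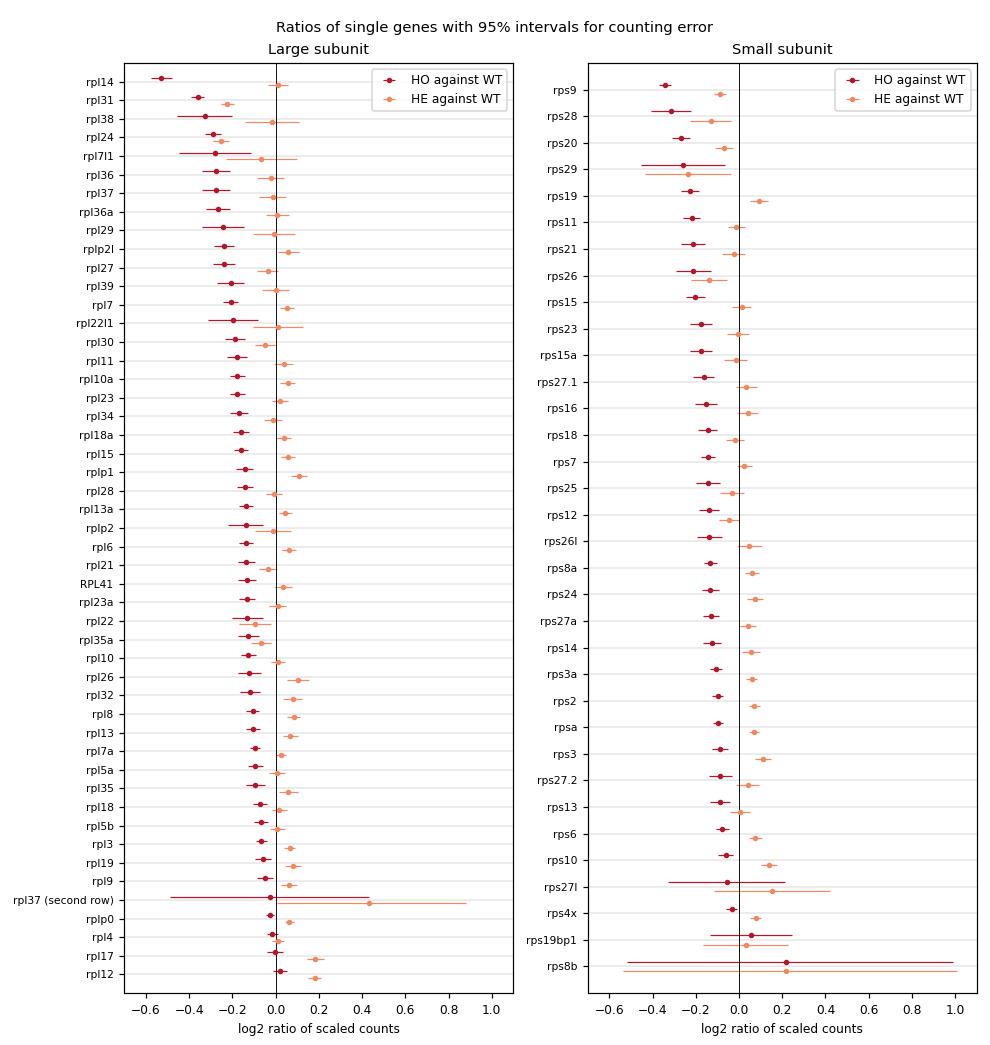
Log2 ratio of scaled counts (horizontal axis) of 49 genes of the large (left) and 34 of the small (right) subunit, for HO against WT in dark red and HE against WT in orange, with 95% intervals for counting error. Most intervals of HO lie left of 0, from rpl14 at −0.53, while those of HE cluster near 0. Among others, rpl31 and rpl24 are low in both.

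In the small subunit, rps9 (ENSDARG00000011405) was furthest below WT. Its protein binds ribosomal RNA early in assembly and lines the mRNA entry channel, and it had 1205 CPM in HO, 1438 in HE and 1528 in WT, from 17140, 18143 and 20538 counts. The log2 ratio was −0.34 (−0.37 to −0.31) for HO against WT and −0.088 (−0.12 to −0.059) for HE against WT, so the 3 libraries fell in the order HO, HE, WT by more than the counting error. rps28, near the mRNA exit channel, had 120.2, 136.5 and 149.5 CPM in HO, HE and WT, and rps20, of the head, had 586.4, 672.9 and 706.7. The same order was seen in both, and their ratios of HO to WT were −0.31 (−0.41 to −0.22) and −0.27 (−0.31 to −0.23). rps29, which encodes a zinc-binding protein of the head, had the smallest exonic size of the 86 genes (346 bases). It had 414, 373 and 468 counts and 29.1, 29.6 and 34.8 CPM in HO, HE and WT. It was highest in WT, with ratios to WT of −0.26 (−0.45 to −0.065) in HO and −0.24 (−0.44 to −0.037) in HE.

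A different order was seen in rps19, the gene most often mutated in Diamond-Blackfan anaemia. It had 638.8 CPM in HO, 797.4 in HE and 748.2 in WT. HE exceeded WT by a log2 ratio of 0.092 (0.052 to 0.13) and HO was below WT by −0.23 (−0.27 to −0.19), so that HO and HE differed by −0.32 (−0.36 to −0.28), the widest gap between them in the small subunit. rps10, also of the head, had 912.3, 1049 and 952.4 CPM in HO, HE and WT, with HE highest at 0.14 (0.10 to 0.17) above WT. Its ratio of HO to WT of −0.062 turned to 0.0039 with the trend over exonic size removed. rps9 and rps19 lie on the chromosome that carries setd2 in the GRCz12tu annotation, as do rpl18 and rps27.2, of 82 genes placed. The ratio of HO to WT was −0.073 for rpl18 and −0.087 for rps27.2, both nearer to 0 than the median. For 707 other tested genes on that chromosome the median was −0.032, with quartiles −0.23 and 0.16, beside −0.17 and 0.15 for all tested genes. Their intervals lay below 0 for 131 (18.5%) and above 0 for 125, against 11.6% and 11.8% of all tested genes. Whether a place on this chromosome has a part in the values of rps9 and rps19 was not tested.

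The most abundant small-subunit genes lay nearer to 0. rpsa, whose protein sits at the back of the platform and was first known as a laminin receptor, had 2262 CPM in HO, 2539 in HE and 2421 in WT. rps2, at the mRNA entry, had 1821, 2049 and 1951, and rps3a, of the platform, had 1539, 1726 and 1658. rps4x, of the body, had 1631, 1762 and 1671, and rps6, the target of the S6 kinases, had 1323, 1470 and 1396. All 5 were lowest in HO and highest in HE. Their ratios of HO to WT were −0.098 for rpsa, −0.099 for rps2, −0.11 for rps3a, −0.035 for rps4x and −0.078 for rps6, with intervals below 0. By position, the 15 genes of the head had a median of −0.15 for HO against WT and the 21 genes of the body and platform one of −0.13. HE against WT gave 0.0096 for the head and 0.048 for the body and platform.

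In the large subunit, genes with more counts had ratios of HO to WT nearer to 0. The Spearman correlation of the ratio with the mean count across genes was 0.47 (n = 49) in the large and 0.11 (n = 37) in the small subunit, and 0.52 (n = 47) and 0.38 (n = 33) among genes with at least 1000 counts, while it was 0.074 over all tested genes. These are descriptions across genes of the same libraries, which are not independent replicates.

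Several members come as copies whose reads can be assigned to either, and the handling of reads with several matches is not given in the sources used here, so single values of these copies are uncertain. rpl5a made up 47.0%, 47.5% and 47.5% of the rpl5 pair in HO, HE and WT, and the intervals of the libraries overlapped. The pair rps27.1 and rps27.2 was nearly as even, with 46.4% from rps27.2 in HO, 45.3% in HE and 45.1% in WT. rplp2 made up 26.4% of its sum with rplp2l in HO and 24.1% in HE, with WT in between. rps26 made up 31.9%, 30.2% and 33.0% of its sum with rps26l.

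Other copies, and genes grouped with them by related names, were unequal. rps8b had 36, 32 and 29 counts in HO, HE and WT, beside 16027, 16257 and 16605 counts for rps8a. rps27l, known as a p53 target in mammals, had 230, 236 and 226 counts. rpl22l1, the relative of rpl22, held 27.4%, 29.9% and 28.3% of their sum. rpl7l1, whose counterpart in yeast acts in assembly of the large subunit, had 559, 576 and 642 counts, and rps19bp1, a binding partner of S19 and no part of the ribosome, had 479, 418 and 436. Of these less abundant genes, rpl22l1 and rpl7l1 had intervals below 0 for HO against WT, at −0.20 (−0.31 to −0.081) and −0.28 (−0.45 to −0.12). The intervals of rps8b, rps27l and rps19bp1 included 0.

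Exonic size was examined because most ribosomal protein genes are short. The median exonic size was 1228 bases in the large and 1083 in the small subunit, against 2490 over all tested genes. Among all tested genes the median log2 ratio of HO to WT was −0.084 in the shortest of 20 equal bins and 0.057 in the longest. For HO against HE the same bins were at −0.11 and 0.18. With the median of the same bin subtracted, HO against WT gave −0.11 in the large and −0.093 in the small subunit, and HE against WT gave −0.0025 and 0.0012. The medians of the ribosomal protein genes thus stayed below those of tested genes of like size and any count in HO against WT, by less than without this step. After this step, 42 in place of 61 genes were at −0.1 or lower, and the share of the tested genes was not computed. In HO against WT the Spearman correlation with exonic size was 0.39 among the 310 other genes with at least 5000 counts. It was 0.12 over all tested genes. For HO against HE these values were 0.55 and 0.20. Whether the bin medians suit genes with many counts was not tested.

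Within the subunits the ratio of HO to WT followed exonic size weakly. The Spearman correlation across genes was 0.23 (n = 49) in the large and 0.28 (n = 37) in the small subunit, and 0.12 over the 18966 tested genes. The 29 genes of the smallest exonic size (346 to 951 bases) had a median of −0.17, the 28 of middle size −0.14 and the 29 of the largest size (1604 to 6136 bases) −0.13. By subunit, no steady order with size was seen. The classes from smallest to largest had medians of −0.14, −0.17 and −0.13 in the large and of −0.19, −0.093 and −0.13 in the small subunit. The subunits differed in HE against WT, where the correlation with exonic size was −0.034 in the large and 0.47 in the small subunit. For HO against HE it was 0.27 and −0.17. Genes with large and with small exonic sizes were among the lowest in HO, for example rps9 with 4959 bases, rpl14 with 1070 and rps20 with 523. The level per length fell with exonic size, with a correlation of −0.48 in the large and −0.37 in the small subunit.

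**Figure D5:**
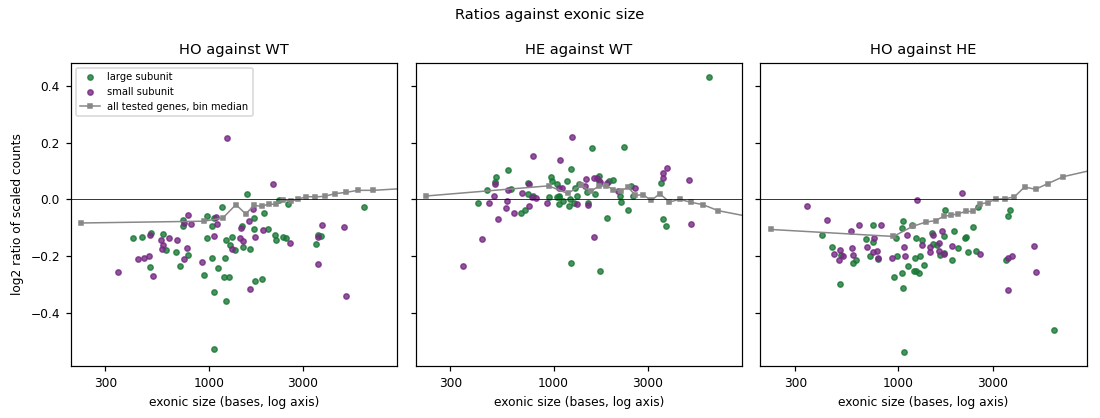
Log2 ratio of scaled counts against exonic size in bases (log axis) for HO against WT, HE against WT and HO against HE, with a point for each gene of the large and small subunit and grey squares for the median of all tested genes in 20 bins of size, the last of which lies beyond the axis. Most points in HO against WT lie below the grey line, which itself runs from −0.084 at small to 0.057 at large sizes.

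Ribosomal proteins that the names do not catch were read next. rack1, a scaffold on the head of the small subunit, had 25824, 24829 and 26136 counts in HO, HE and WT. faua, whose product holds protein S30, had 9020, 9517 and 9648. Their log2 ratios of HO to WT were −0.10 for rack1 and −0.18 for faua, both with intervals below 0 and within the range of the 86 genes. The copy faub had 74, 63 and 57 counts and a ratio of 0.29, with an interval that included 0.

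Translation factors, which act with the ribosome without being part of it, had medians nearer to 0 in HO against WT. The median ratio was −0.035 for 23 genes of 40S initiation factors, 8 of which (34.8%) had intervals below 0 and 1 above. It was −0.042 for 12 elongation factor genes, with intervals below 0 for 4 (33.3%) and above 0 for 3. Over all tested genes, intervals lay below 0 for 11.6% and above 0 for 11.8%. They lay below 0 for 18.8% of the 2422 other genes with at least 1000 counts. For the 310 other genes with at least 5000 counts the share was 36.5%. Median half-widths of the counting intervals were 0.084 and 0.059 for the initiation and elongation factors, beside 0.094 and 0.044 for these other genes. Among the elongation factors, eef1a1l1, the main gene of elongation factor 1A, had 128439, 116458 and 119514 counts in HO, HE and WT. Its ratio was 0.022, which turned to −0.0096 with the trend over exonic size removed. eef2b, for elongation factor 2, had 64226, 56424 and 61147 counts and a ratio of −0.011 (−0.027 to 0.0051). A list of 17 other mRNAs known in mammals to begin with a pyrimidine tract, some of them also in these lists, had a median of −0.044. Within it npm1a, for a nucleolar assembly factor, had 1843, 1856 and 2226 counts and a ratio of −0.35, the lowest of the list. The copy npm1b had 990, 901 and 931 counts and a ratio of 0.0069 (−0.12 to 0.14). tpt1 had 44053, 40553 and 41891 counts and a ratio of −0.0092 (−0.029 to 0.010).

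The factors that build the subunits had lower counts and wide intervals. The 14 genes for maturation and joining of the large subunit had a median of −0.16 for HO against WT, with intervals below 0 for 3 (eif5b, lsg1 and wdr12), or 21.4%, and above 0 for none. The 13 genes for maturation of the small subunit had a median of −0.042, with intervals below 0 for 2 (emg1 and nol6), or 15.4%, and above 0 for none. The share over all tested genes was 11.6%, to which the share of the small-subunit factors was close. In HE against WT the medians were −0.049 and −0.075.

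Ribosomal proteins of the mitochondrion, which build a separate ribosome for the genes of mitochondrial DNA, were set beside the cytosolic ones by subunit. For HO against WT the 46 genes of the mitochondrial large subunit had a median of −0.12 and the 28 of the small subunit −0.091. For HE against WT the medians were 0.12 and 0.11, which is farther above 0 than those of the cytosolic subunits, and for HO against HE they were −0.24 and −0.16. With the trend over exonic size removed, the mitochondrial medians for HO against WT were −0.065 and −0.036, beside −0.11 and −0.093 for the cytosolic subunits. The mitochondrial genes have fewer counts, and in HO against WT their intervals lay below 0 for 11 of 46 (23.9%) and 6 of 28 genes (21.4%), beside 11.6% of all tested genes, and above 0 for 2 and 1 genes. Whether the cytosolic and mitochondrial lists differ from each other was not tested.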

How the data were processed

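RNA of whole embryos was sequenced in 3 libraries (HO, HE and WT, 1 each). The deposited counts are numbers of reads per gene made by the authors, without normalization. The deposited FPKM values were computed by the authors and equal the count divided by exonic size and library total, with a largest difference of 0.0050. The per-library and series tables differed in 0 of the values compared. For WT and HE both counts and FPKM were compared, and for HO only the counts. The submitters' processing notes name HISAT2 2.0.2 and GRCz11, whereas the paper's methods name TopHat, Cufflinks and another build. The library kits named also differ, and whether strand was used in counting is not given in the sources used here. Of the deposited columns, 1 was left out since it is headed with the name of a different library.

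Library sizes were adjusted by TMM over all genes in edgeR 4.0.16 under R 4.3.3 (factors 1.004, 0.989 and 1.007 for HO, HE and WT), and log2 ratios used a prior count of 2. The tested genes, against which each count of members is read, are those with a mean count of 10 or more. Exact binomial intervals of 95% came from scipy 1.17.1 in Python 3.11.15 (numpy 2.4.6, pandas 2.3.3), and figures from matplotlib 3.10.9. Intervals cover counting error only. The steps were tested on simulated data.

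Genes were named by these rules. In each subunit the 5 of highest mean count were taken. Among those with at least 1000 counts, the 4 lowest and 4 highest ratios of HO to WT and the 2 smallest and 2 largest exonic sizes were taken. All copies of a gene, members with related names, members chosen for their roles, and up to 2 abundant genes of each other list were added. rpl18, rps7, rps29, faub, npm1a, npm1b, tpt1 and the maturation factors with intervals below 0 were named outside these rules or after their values were seen. The members, lists and fold limits were chosen with earlier results of these data known. Chromosomes came from the GRCz12tu annotation, and positions are not given because the builds differ. Alternatives were a prior count of 0.25, other choices of members, removal of the median of 20 bins of exonic size, size factors from DESeq2 1.42.0, total-count scaling, log2 FPKM (pseudocount 1 or 0.1), and a mean count of 100 or no filter. Some genes are not reported here one by one, although medians, sums and counts include them. Sequences of the genes and proteins were not used here.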

Additional observations from a re-analysis of the deposited data

How the results depend on the processing

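The summaries of the subunits were recomputed under the alternatives, not each under all, which gave 195 values for 18 results. Of these, 183 stayed near the value reported (for medians, within the interval over genes, and for counts of genes, within 1.5 times). Some could not move, since all 86 members passed the filter and removing it changed nothing. Rescaling hardly alters the correlations or the difference between subunit medians. The range of that difference included 0, so a change of its sign within the range counted as near. The median ratio of HE to WT in the large subunit (0.017) turned to −0.0097 with scaling to total counts, with FPKM and a pseudocount of 1 and with FPKM and a pseudocount of 0.1, and to −0.0025 with the trend over exonic size removed. The small-subunit median of HO against HE (−0.17) was −0.15 with total counts and with FPKM at either pseudocount. Removing the trend over exonic size gave −0.11 (large) and −0.093 (small) for HO against WT and −0.093 and −0.081 for HO against HE. It left 36 in place of 72 genes at −0.1 or lower in HO against HE, with no share of the tested genes computed. It turned the ratio of HO to WT to 0.041 for rplp0, 0.0039 for rps10, 0.0097 for rpl5b and −0.0096 for eef1a1l1, and that of HO to HE to 0.0065 for rplp0, 0.029 for rpl5a and 0.055 for rpl5b. The cause was not tested beyond the construction of this step. Of 1008 values for 56 named genes, 884 stayed within their counting intervals and 117 left them without being counted as a reversal. The other 7 changed sign where the interval excluded 0. Changes of sign where the interval included 0 were not counted as reversals and are among the 884 and the 117. Another reading of the member names, and leaving out rpl14, rpl24, rpl31 and rps9, were choices made after seeing the data. Neither moved a recomputed summary out of its range. Without these genes only the difference of the subunit medians and the ratio of summed counts were recomputed, not the medians themselves. Genes with few counts (rps8b, rps27l, the second rpl37 row) are limited by depth. With 1 library per genotype, variation between embryos or preparations is not measured. No paired analysis was possible because each genotype has 1 library and no test was run.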
